A study of Saccharomyces cerevisiae with 34 samples.

Results

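Budding yeast takes up glucose through the Hxt hexose transporters and traps it inside the cell as a hexose phosphate with the hexokinases Hxk1 and Hxk2 and the glucokinase Glk1. Of the 10 genes in this group, HXT1 to HXT7, HXK1, HXK2 and GLK1, 6 were found by systematic name among the 5390 S. cerevisiae rows of the deposited count table. These were the transporter genes HXT1, HXT2, HXT3, HXT4 and HXT5 and the hexokinase gene HXK2. HXT6, HXT7, HXK1 and GLK1 were not analysed here.

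The counts came from Saccharomyces cerevisiae BY4741 with the KIN28 allele kin28is, the allele kin28as or wild-type KIN28 (WT), grown at 30 °C in medium with 2% dextrose and no histidine. Kin28 is the kinase of TFIIH and acts on the C-terminal tail of RNA polymerase II as transcription starts, and the altered forms accept bulky ATP analogs as inhibitors. Mid-log cultures of kin28is and WT received CMK, which inhibits irreversibly, the reversible inhibitor 1-NAPP-1 or the solvent DMSO for 1 h, and kin28as cultures received 1-NAPP-1 or DMSO. All cultures but 1 WT DMSO culture were labelled with 5 mM 4-thiouracil (4tU) for the last 6 min, and S. pombe cells that had also been labelled were mixed in before lysis at 1 cell for 6 S. cerevisiae cells. The labels give 2 µM for the libraries numbered 1 and 5 µM for all later numbers, so dose and replicate set cannot be told apart, and how the alleles were made and whether a strain was 1 clone was not given in the sources used here. Nascent RNA is the 4tU-labelled RNA purified through biotin, and total RNA was sequenced without that step.

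There were 19 nascent and 15 total RNA libraries. In nascent RNA, kin28is had 1 library per treatment at 2 µM and 3 with CMK, 2 with 1-NAPP-1 and 2 with DMSO at 5 µM, and WT had 1 per treatment and dose. In total RNA, kin28is and WT had 1 library per treatment and dose. The kin28as strain had 1 library per treatment and RNA fraction, all at 2 µM, and the unlabelled WT DMSO culture had 1 nascent and 1 total RNA library. Libraries held between 517887 (nascent kin28is 1-NAPP-1 replicate 2) and 15568445 reads, counting both species. Of the genes specific to MATa cells, such as BY4741, MFA2 stood at 212 to 395 and STE2 at 173 to 427 counts per 1000000 S. cerevisiae reads (CPM) in total RNA. The third, MFA1, was lower, at 24.1 to 138 CPM there, and had 0 reads in 1 nascent library. The alpha-specific genes MF(ALPHA)1 and MF(ALPHA)2 had at most 14 reads in any library, but the third, STE3, had up to 233. Of the loci that BY4741 carries as deletions, MET17 had at most 3 reads in any library, URA3 and LEU2 reached 2.69 and 30.8 CPM in total RNA and HIS3 stood at 51.8 to 124 CPM there, and URA3 reached 359 CPM in 1 nascent library. KIN28 itself was read at 28.9 to 88.8 CPM in nascent and 44.6 to 83.6 CPM in total RNA, which does not check the alleles, since these change the protein.

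By way of background, Hxt1 and Hxt3 are low-affinity transporters used when glucose is plentiful, Hxt2 and Hxt4 have higher affinity and are induced by low glucose, and Hxt5 is associated with slow growth. The glucose sensors Snf3 and Rgt2 act through the casein kinases Yck1 and Yck2 and the proteins Mth1 and Std1 to release the repressor Rgt1 from HXT promoters. The repressor Mig1, with Tup1 and Cyc8, keeps HXT2, HXT4 and many genes for other carbon sources low in glucose, and the kinase Snf1 opposes it. Hxk2 is the main hexokinase during growth on glucose and is also needed for glucose repression.

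The 4 genes on which most of the results below turn differ in the letters just upstream of their start codons. The 200 bases from 300 to 101 bases before the start codon are printed 5′ to 3′ on the gene's strand (RefSeq, assembly R64, the sequence of sacCer3), HXT3 from chrIV:1164761-1164960, HXT1 from chrVIII:292726-292925 and HXT4 from chrVIII:288912-289111, all on the minus strand, and HXK2 from chrVII:23635-23834 on the plus strand. Capitals mark letters that match a Mig1 site (GCGGGG with its variant GTGGGG, and CCGGGG with its variant CTGGGG) or an Rgt1 site (CGGANNA) on either strand.
HXT3: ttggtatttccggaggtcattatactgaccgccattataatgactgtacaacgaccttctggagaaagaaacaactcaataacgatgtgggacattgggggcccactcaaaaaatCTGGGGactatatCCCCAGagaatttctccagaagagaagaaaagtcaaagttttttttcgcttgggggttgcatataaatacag
HXT1: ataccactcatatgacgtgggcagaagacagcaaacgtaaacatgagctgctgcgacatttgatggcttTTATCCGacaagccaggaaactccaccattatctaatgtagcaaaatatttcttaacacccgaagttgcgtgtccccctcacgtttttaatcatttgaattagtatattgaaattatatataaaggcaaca
HXT4: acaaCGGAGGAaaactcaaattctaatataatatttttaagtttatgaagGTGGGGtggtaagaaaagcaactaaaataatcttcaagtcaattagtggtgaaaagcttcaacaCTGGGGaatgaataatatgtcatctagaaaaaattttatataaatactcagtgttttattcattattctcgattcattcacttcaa
HXK2: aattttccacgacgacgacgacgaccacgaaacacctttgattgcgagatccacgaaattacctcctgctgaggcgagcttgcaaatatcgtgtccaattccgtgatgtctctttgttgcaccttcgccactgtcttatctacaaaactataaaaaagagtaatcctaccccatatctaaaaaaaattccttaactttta

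Over the whole 300 bases before the start codon, Mig1 letters were found in 12% of 6001 genes, at 2 places each in HXT1, HXT3 and HXT4, at 1 place in HXT2 and not in HXT5 or HXK2. The HXT1 matches began 78 and 59 bases before the start codon, outside the printed window. Rgt1 letters were found in 26.9% of the 6001 regions and in HXT1, HXT4 and HXT5. The stress element letters AGGGG were found in 22.2% and, of the 6 genes, in HXT1, and TATAAA in 48.2% and in all 6. A match is a run of letters and not a measured site.

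HXT4 (YHR092C, 287081 to 288811), HXT1 (YHR094C, 290913 to 292625) and HXT5 (YHR096C, 294669 to 296447) are neighbours on chromosome VIII, in this order and all on the minus strand, with 2101 bases between HXT4 and HXT1 and 2043 between HXT1 and HXT5. HXT3 is YDR345C (chromosome IV, 1162957 to 1164660, minus strand), HXT2 is YMR011W (chromosome XIII, 288079 to 289704, plus strand) and HXK2 is YGL253W (chromosome VII, 23935 to 25395, plus strand). In the RefSeq annotation none of the 6 overlaps another gene. The coding sequences of HXT1 and HXT3 were identical at 82% of aligned bases, those of HXT6 and HXT7 at 99.8%. Of all 100-base windows, the length of a read, 96.4% in HXT3, 98.8% in HXT1 and HXT5 and 100% in HXT2, HXT4 and HXK2 occurred once in the genome, against 5.08% in HXT6 and HXT7. How the authors counted reads that fit several places or the other strand was not given in the sources used here.

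In untreated WT cells HXK2 was the highest of the 6 genes and HXT3 the highest transporter in each library. Per length, as CPM per kilobase of gene (RPKM, mean of the 2 WT DMSO libraries), HXK2 had 583 in nascent and 797 in total RNA, above 97.0% and 95.9% of 5241 genes. In nascent RNA it led HXT3 by less in replicate 2 (442 against 359 RPKM) than in replicate 1 (724 against 332 RPKM). HXT3 had 346 in nascent and 266 in total RNA, HXT1 had 85.5 and 54.1, and HXT2 had 40.2 and 51.8. HXT4 stood at 2.80 in nascent and 9.54 in total RNA, above 4.60% and 5.13% of genes, and HXT5 at 0 and 1.15. HXT1 and HXT2 are neighbours in this order that do not differ beyond their spread: HXT1 had 79.6 and 213 CPM and HXT2 106 and 24.6 CPM in nascent WT DMSO replicates 1 and 2, so that their order differed between the libraries.

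HXT3 also held most of the reads of the transporter genes in every labelled library. Its share of the summed RPKM of HXT1 to HXT5 ran from 71.9% to 89.9% in 18 nascent libraries (median 80.8%) and from 56.3% to 77.7% in 14 total RNA libraries (median 70.4%). Within nascent RNA the share was 77.5% to 89.9% in 10 kin28is libraries and 71.9% to 76.4% in 6 WT libraries, ranges that did not overlap. In total RNA the ranges did overlap, at 56.3% to 77.7% in 6 kin28is libraries and 60.3% to 74.05% in 6 WT libraries. Whether the strains differ in this share was not tested. HXT1 held 6.94% to 24.9% of the nascent sum, HXT2 1.91% to 14.6% and HXT4 0.177% to 3.47%. HXT2 moved with the replicate set, holding 4.97% to 14.6% in the 2 µM nascent libraries and 1.91% to 4.09% in the 5 µM ones, whatever the treatment. The HXT1 shares of the sets overlapped, at 6.99% to 10.4% at 2 µM and 6.94% to 24.9% at 5 µM.

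HXT5 was hardly read in nascent RNA. It had 0 reads in 14 of the 18 labelled nascent libraries and in the library without 4tU, which allows 0.197 to 8.64 CPM where 3 reads are taken as the limit for a count of 0. The other labelled libraries held 7 reads (kin28is CMK replicate 2), 2 (kin28is DMSO replicate 3), 11 (WT 1-NAPP-1 replicate 2) and 1 (WT 1-NAPP-1 replicate 1). HXT5 passed the filter on low counts, but no nascent fold change is given for it.

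The main question of the study for these genes is what irreversible inhibition of Kin28 does to their new transcripts. At 5 µM, CMK lowered nascent HXK2, HXT1 and HXT3 in kin28is cells when S. pombe reads were the yardstick, with HXK2 6.8-fold, HXT1 4.13-fold and HXT3 2.75-fold lower than with DMSO. These 3 genes were lower, as most genes were. HXT2 and HXT4 did not pass the test, and whether they differ from the 3 called genes was not tested. Of all 5222 genes tested, 71.7% were lower and 0.249% higher, so 3 of 6 lower is not more than the background. Set against all other S. cerevisiae genes, only HXK2 was lower.

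HXK2 had 167, 144 and 92.1 spike-scaled reads, that is, reads per 1000000 S. pombe reads, in the 3 kin28is CMK libraries at 5 µM, against 806 and 994 in the 2 kin28is DMSO libraries. All CMK values lay below both DMSO values. On this scale fewer S. cerevisiae cells and less RNA per cell cannot be told apart. The difference was −2.77 ± 0.525 on the log2 scale (± SE, edgeR quasi-likelihood test, adjusted p = 1.2e-05), and 2.80% of the genes tested had a lower value, where the median gene stood at −1.69. In the WT DMSO culture without 4tU, whose reads give the background of the pull-down, HXK2 had 101 spike-scaled reads. The CMK libraries stood at 0.910 to 1.65 times this background and the kin28is DMSO libraries at 7.96 to 9.82 times.

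HXT3 had 960, 765 and 691 spike-scaled reads in the kin28is CMK libraries, against 1547 and 2849 with DMSO. The groups did not overlap. The difference was −1.46 ± 0.49 (log2 ± SE, edgeR adjusted p = 0.00715), and 64.8% of genes had a lower value. HXT3 stayed far over the pull-down background, at 8.97 to 12.5 times the library without 4tU with CMK and 20.1 to 37.0 times with DMSO.

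HXT1 had 151, 68.1 and 53.7 spike-scaled reads with CMK, against 325 and 412 with DMSO, again without overlap. The difference was −2.05 ± 0.567 (log2 ± SE, edgeR adjusted p = 0.0015), with 24.7% of genes lower, and CMK libraries stood at 1.85 to 5.21 times the background. HXT2 had 34.9, 26.7 and 16.4 with CMK, against 46.4 and 60.9 with DMSO, which did not overlap but gave −1.08 ± 0.718 (edgeR adjusted p = 0.157), on 20 to 41 reads per CMK library. HXT4 had 6.35, 25.4 and 7.61 with CMK, against 9.84 and 16.4 with DMSO, so the groups overlapped (−0.03 ± 0.921, edgeR adjusted p = 0.976), on 4 to 19 reads per CMK library. The HXT1 call was lost without kin28is DMSO replicate 3 (adjusted p = 0.0582), and so was that of HXT3 (−0.98, adjusted p = 0.22). HXK2 kept its call in 10 of 10 fits that left out 1 library.

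**Figure D1:**
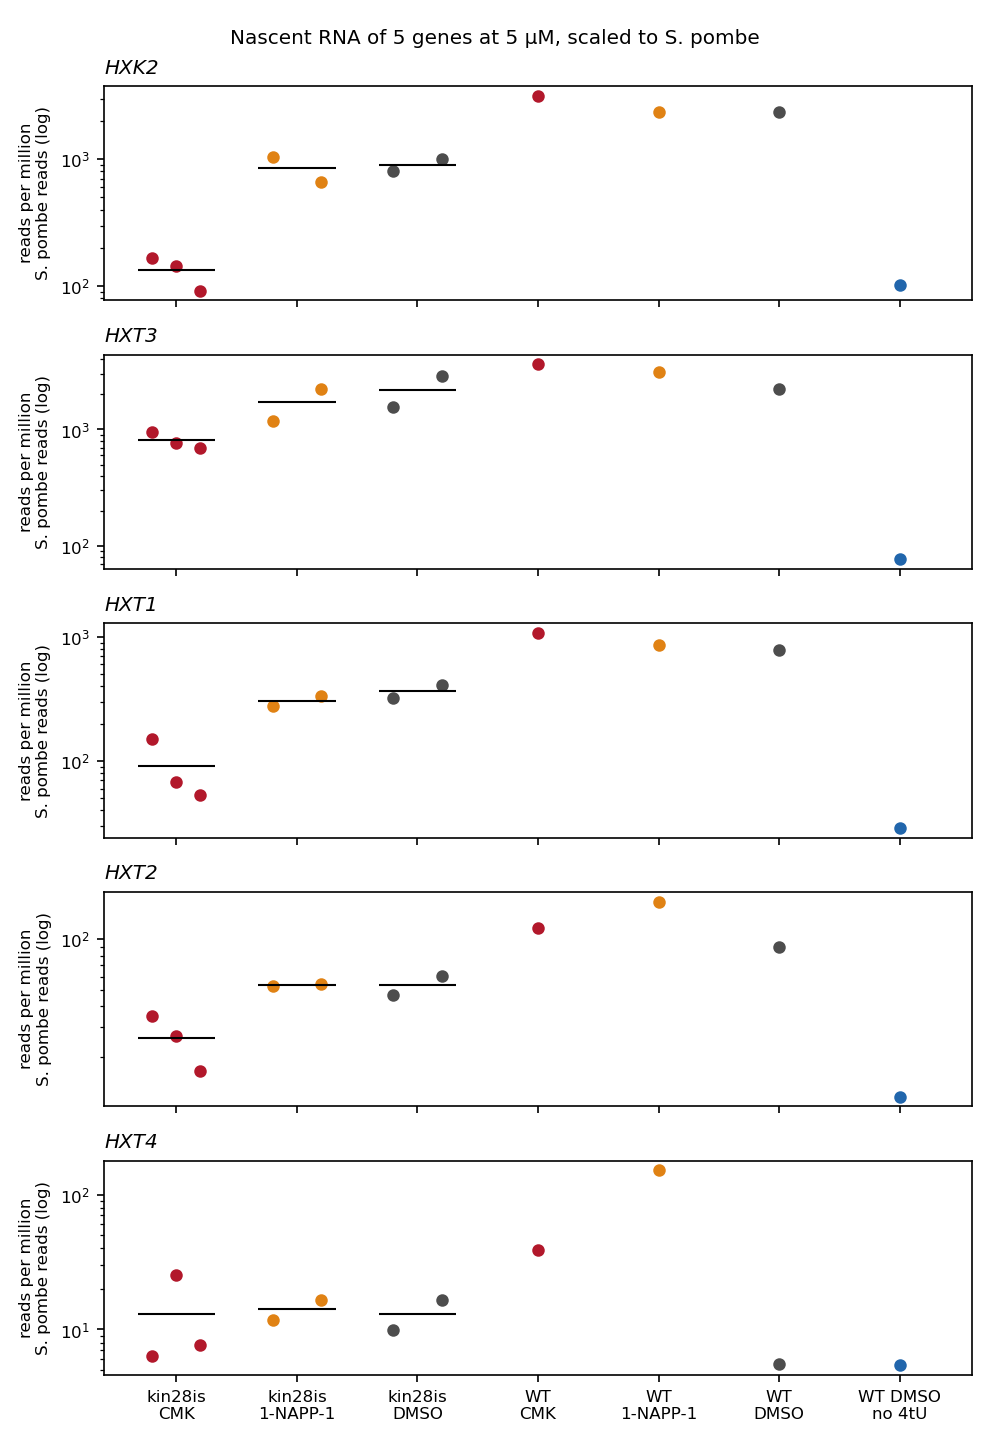
Nascent RNA of 5 genes at 5 µM as spike-scaled reads, per 1000000 S. pombe reads (log axes, each point a library, lines the mean where a group has more than 1 library). In the HXK2 panel the 3 kin28is CMK libraries, at 92.1 to 167, lie beside the WT library without 4tU at 101, while the same libraries keep HXT3 at 691 to 960 against 77.1 without 4tU.

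Relative to other S. cerevisiae genes, with library sizes taken from S. cerevisiae reads, the order of the 5 genes was the same but their values straddled 0. HXK2 had 325, 284 and 333 CPM with CMK, against 668 and 577 with DMSO, a difference of −1.07 ± 0.236 (2.1-fold, edgeR adjusted p = 0.029). On this scale 2.09% of 5212 genes were lower and 2.40% higher. HXT3 had 1872, 1504 and 2497 CPM with CMK, against 1281 and 1652 with DMSO, and the groups overlapped (0.345 ± 0.41, edgeR adjusted p = 0.664), so its direction depends on the scale. HXT1 was at −0.397 (adjusted p = 0.483), HXT2 at 0.612 (adjusted p = 0.333) and HXT4 at 1.70 (adjusted p = 0.136). The least-read genes moved with HXT4: 527 other genes, the lowest in the table, held 1.35%, 1.17% and 0.866% of the nascent S. cerevisiae reads in the CMK libraries and 0.503% and 0.633% with DMSO, and their part in the result was not tested. HXT4 had 12.4, 49.9 and 27.5 CPM with CMK, against 8.15 and 9.52 CPM with DMSO. The library without 4tU held 37.8 CPM of HXT4 and 1.34% in the least-read genes. In spike-scaled reads HXT4 stood at 1.17 to 4.67 times that background with CMK and 1.81 to 3.02 times with DMSO.

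**Figure D2:**
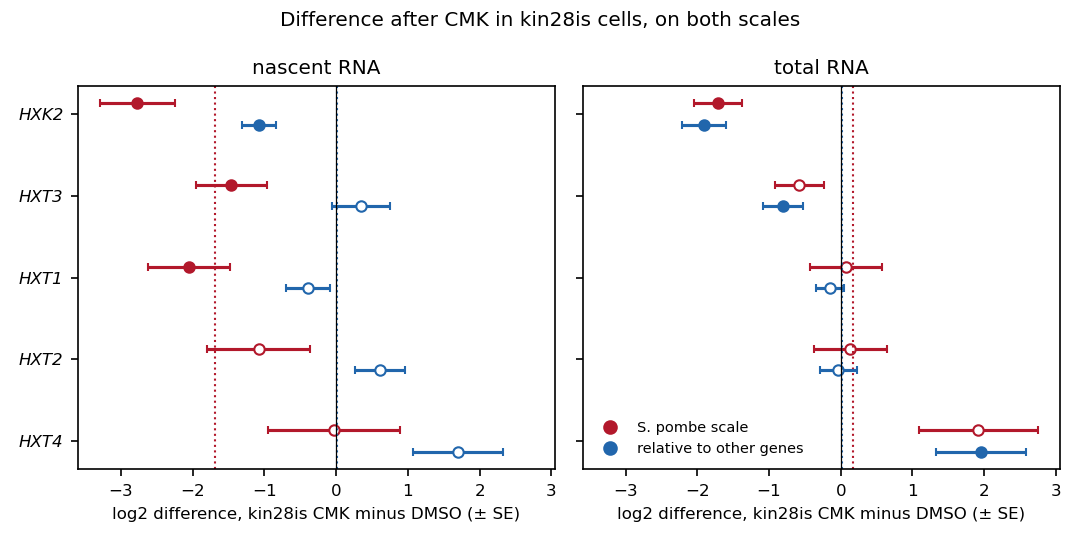
Fitted log2 difference (± SE) of kin28is CMK minus DMSO in nascent and total RNA, scaled to S. pombe (red) or to the other S. cerevisiae genes (blue). Filled points passed the adjusted p of 0.05 and dotted lines give the median of all genes. HXK2 is filled on both scales in both panels, while HXT3 in nascent RNA changes sign between the scales.

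As a within-library description chosen after the values were seen, reads of HXT3 per read of HXK2 need no scaling between libraries. At 5 µM the ratio was 5.76, 5.31 and 7.50 in the nascent kin28is CMK libraries, 1.13 and 3.40 with 1-NAPP-1 and 1.92 and 2.87 with DMSO. At 2 µM it was 0.819 with CMK, 1.63 with 1-NAPP-1 and 0.647 with DMSO. Across WT nascent libraries it ran from 0.536 to 1.33. The 3 CMK libraries at 5 µM thus stood above every other library, and the 2 µM CMK library did not.

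The 2 µM library pair moved the same way as the 5 µM libraries for CMK against DMSO. In spike-scaled reads HXK2 had 11120 with CMK and 34820 with DMSO at 2 µM, a log2 difference of −1.65, beside −2.27 and −2.79 for the libraries numbered 2 and 3. HXT3 differed by −1.31 at 2 µM and by −0.688 and −1.90 at 5 µM, and HXT1 by −1.39, −1.11 and −2.60. With CMK and with DMSO, kin28is levels of these 3 genes were higher at 2 µM than in any 5 µM library of the same treatment, and there were 13.9 S. cerevisiae reads per S. pombe read with CMK and 32.2 with DMSO at 2 µM. In a fit of all 16 labelled kin28is and WT nascent libraries no member was called.

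The inhibitors were compared directly at 5 µM, and CMK left less nascent RNA of HXK2, HXT1 and HXT3 than 1-NAPP-1 did. HXK2 had the 3 CMK values above, against 1038 and 660 spike-scaled reads with 1-NAPP-1, a difference of −2.69 ± 0.528 (6.46-fold, edgeR adjusted p = 1.2e-05). HXT1 had 276 and 333 with 1-NAPP-1, and the difference was −1.78 ± 0.575 (3.44-fold, edgeR adjusted p = 0.00436). HXT3 had 1173 and 2245 with 1-NAPP-1, and the difference was −1.10 ± 0.494 (2.14-fold, edgeR adjusted p = 0.0369). For these 3 genes no 1-NAPP-1 library reached down to the CMK libraries. HXT2 differed by −1.08 (2 SE either side, −2.60 to 0.434) and HXT4 by −0.22 (−2.23 to 1.79), which does not show that the inhibitors act alike on them. Background was again high, with 74.7% of genes called, all but 1 of them lower, and a median of −1.85.

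Limits of this comparison lie in the scale and the dose. Relative to other S. cerevisiae genes no member was called (1.94% of genes were; edgeR unadjusted p = 0.00628 for HXK2, DESeq2 on the S. pombe scale called 3), with HXK2 at −0.784 (adjusted p = 0.106) and HXT3 at 0.690. At 2 µM, with 1 library each, CMK stood above 1-NAPP-1 per S. pombe read, by 2.14 for HXK2, 1.15 for HXT3, 1.43 for HXT1 and 1.13 for HXT2 on the log2 scale. The HXT3 call held in 5 of 10 fits that left out 1 library, the lowest difference being −0.548 (adjusted p = 0.411) without kin28is 1-NAPP-1 replicate 3.

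The reversible inhibitor by itself gave no call at 5 µM. Nascent HXK2 differed by −0.07 between kin28is 1-NAPP-1 and DMSO (2 SE either side, −1.21 to 1.07), HXT3 by −0.36 (−1.46 to 0.734) and HXT1 by −0.27 (−1.51 to 0.985). No member passed in edgeR, at an unadjusted p under 0.05 or in DESeq2, and 0.191% of all genes were called, all higher. In the 2 µM libraries, 1 each, HXK2 had 2525 spike-scaled reads with 1-NAPP-1 and 34820 with DMSO, 13.8-fold lower, and HXT3 and HXT1 differed by −2.45 and −2.82 on the log2 scale. At 2 µM there were 4.71 S. cerevisiae reads per S. pombe read with 1-NAPP-1, and in WT cells 12.8 with 1-NAPP-1, 45.8 with CMK and 44.7 with DMSO. WT HXK2 at 2 µM had 14720 with 1-NAPP-1, 53890 with CMK and 47240 with DMSO, so a lower value with 1-NAPP-1 was seen there in WT cells as well.

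WT cells, whose Kin28 is not sensitised, gave no call with either inhibitor at 5 µM, on 1 library per treatment. Nascent HXK2 had 3155 spike-scaled reads with CMK, 2328 with 1-NAPP-1 and 2353 with DMSO, and HXT3 had 3617, 3092 and 2230. HXT1 had 1072 with CMK, 867 with 1-NAPP-1 and 777 with DMSO. CMK minus DMSO came to 0.44 for HXK2, 0.71 for HXT3 and 0.48 for HXT1 on the log2 scale, with 0.0766% of genes called, and no member passed at an unadjusted p under 0.05 or in DESeq2. With 1-NAPP-1 the same share was called, and HXT4 alone had an unadjusted edgeR p under 0.05, from 130 reads against 1 read with DMSO (adjusted p = 1). That 1-NAPP-1 library, replicate 2, was also the labelled WT nascent library with the largest share of reads in the 527 least-read genes, 1.02%, beside 1.34% in the WT library without 4tU, and their part in the HXT4 value was not tested.

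Whether the CMK response itself differed between the strains was tested as an interaction. The nascent HXK2 response in kin28is minus that in WT was −3.20 ± 0.986 (log2 ± SE, edgeR adjusted p = 0.0957), that of HXT1 −2.52 ± 1.07 (adjusted p = 0.126) and that of HXT3 −2.17 ± 0.935 (adjusted p = 0.126). None passed in edgeR, where 0.364% of all genes did, and all 3 had an unadjusted p under 0.05. DESeq2 called all 3 (adjusted p = 0.00725, 0.0371 and 0.041), but it also called 1207 of 5224 genes lower and 2 higher. With DMSO alone, nascent HXK2 in kin28is minus WT was −1.45 ± 0.67 (edgeR adjusted p = 0.175), which did not pass in edgeR (0.440% of genes did). It passed in DESeq2 (−1.46, adjusted p = 0.0468), which called 496 of 5224 genes lower and 0 higher. HXT3 stood at −0.09 (2 SE either side, −1.43 to 1.25) in that comparison.

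In total RNA, HXK2 was the one member that fell with CMK in kin28is cells on the S. pombe scale, and the transporter mRNAs did not pass the test there. Relative to other S. cerevisiae genes HXK2 and HXT3 were lower and HXT4 higher. HXK2 had 435 CPM at 2 µM and 255 CPM at 5 µM with CMK, against 1109 and 963 CPM with DMSO and 921 and 856 CPM with 1-NAPP-1. Both CMK libraries lay below all other labelled kin28is and WT libraries, which ran from 788 to 1284 CPM, and below the library without 4tU at 619 CPM. Scaled to S. pombe, with the dose set as a term of the fit, CMK minus DMSO was −1.71 ± 0.335 (3.28-fold, edgeR adjusted p = 7.44e-05), and 0.516% of genes had a lower value. Of 5233 genes tested, 2.04% were lower and 0.306% higher. Against 1-NAPP-1 the difference was −1.74 ± 0.336 (3.33-fold, edgeR adjusted p = 5e-05), where 3.99% of genes were called.

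These comparisons share the CMK libraries, and each dose had 1 library per group. The differences per S. pombe read were −1.66 at 2 µM and −1.51 at 5 µM, and −1.35 and −1.92 per S. cerevisiae read. The call was lost without kin28is CMK replicate 2 (−1.45, edgeR adjusted p = 0.108, and −1.46, adjusted p = 0.0874, against 1-NAPP-1), and without the dose term (adjusted p = 1 for both). Relative to other S. cerevisiae genes HXK2 was lower with CMK than with DMSO (−1.91 ± 0.305, edgeR adjusted p = 0.00333), where 20.4% of genes were lower and 18.2% higher, and than with 1-NAPP-1 (−1.59 ± 0.302, adjusted p = 0.0113), where 15.3% were called. The response differed from that of WT cells by −1.57 ± 0.463 (edgeR adjusted p = 0.119), which was not called in edgeR, where 0.440% of genes were. DESeq2 called it (adjusted p = 0.00967), with 65 of 5232 genes lower and 0 higher.

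**Figure D3:**
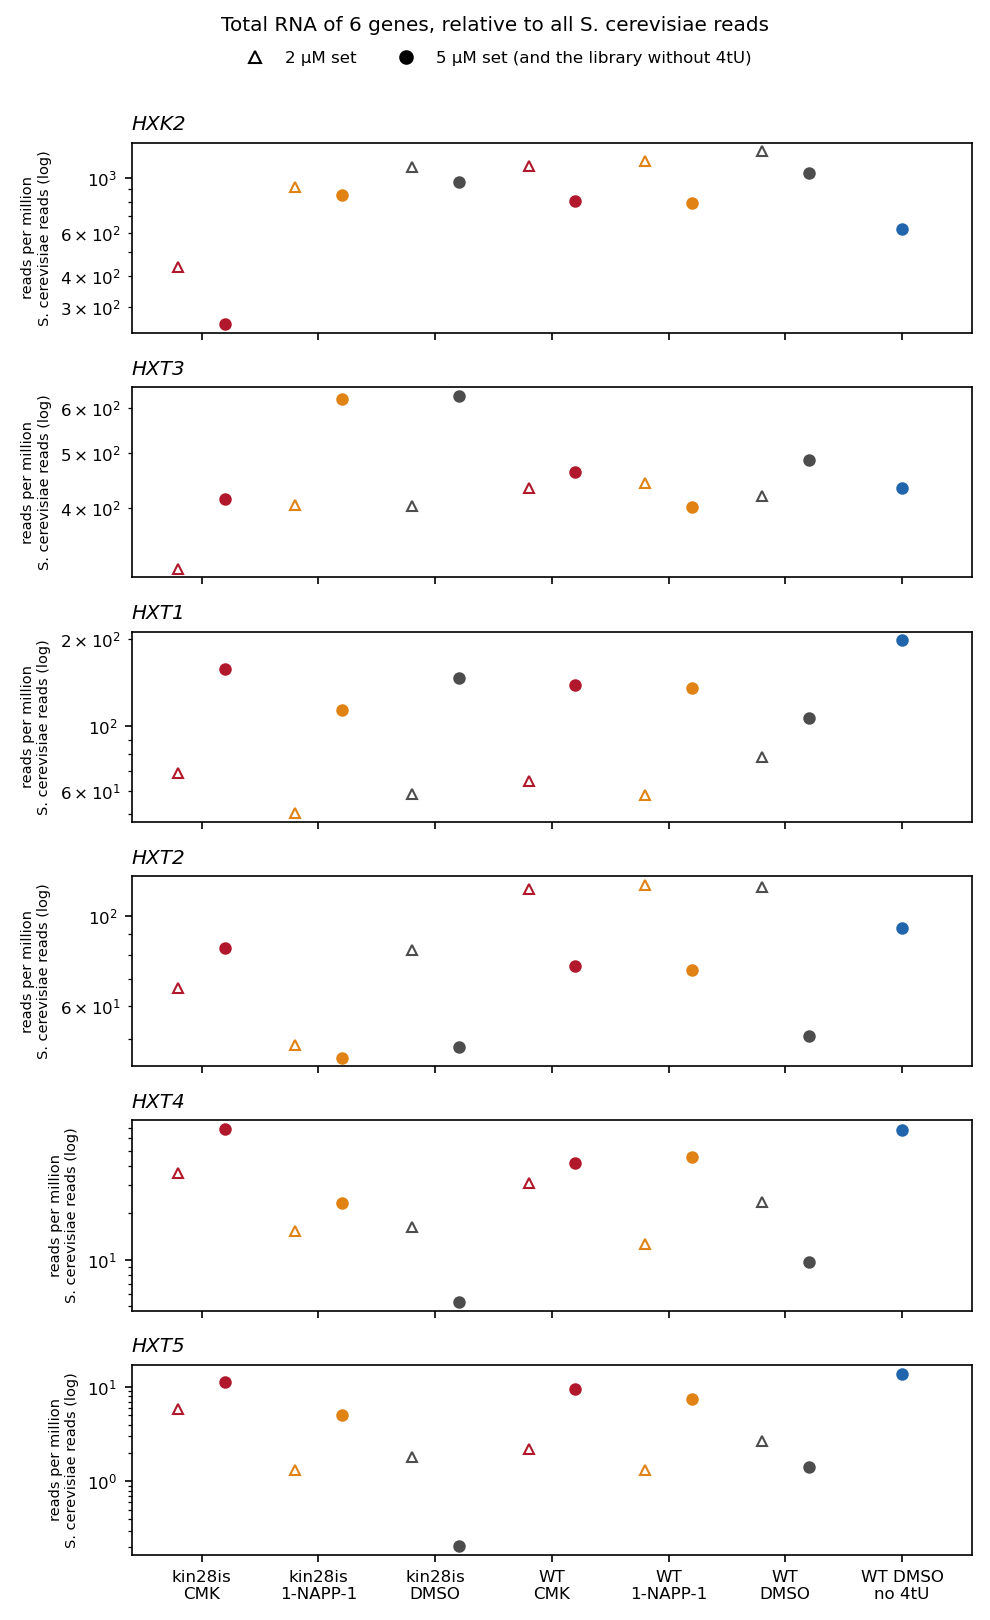
Total RNA of the 6 genes in CPM (log axes) in each kin28is and WT library, with the 2 µM set as open triangles and the 5 µM set as filled circles. HXK2 is lowest in the 2 kin28is CMK libraries, at 435 and 255, and HXT4 and HXT5 are high in kin28is CMK at 5 µM and in the library without 4tU alike.

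HXT3 mRNA had 313 and 416 CPM with CMK, against 404 and 631 CPM with DMSO, lower at both doses. Its difference scaled to S. pombe was −0.57 ± 0.34 (edgeR adjusted p = 0.382), and relative to other S. cerevisiae genes it was −0.80 ± 0.274 and passed (1.75-fold, adjusted p = 0.041). Against 1-NAPP-1, at 406 and 622 CPM, it was −0.82 ± 0.341 (edgeR adjusted p = 0.198). In DESeq2 it was −0.83 (adjusted p = 0.0177), where 450 of 5232 genes were called lower and 0 higher. HXT1 had 68.9 and 158 CPM with CMK, against 58.4 and 147 CPM with DMSO (0.08 ± 0.504, edgeR adjusted p = 0.95), so the dose sets differed more than the treatments did. HXT2 had 66.6 and 83.4 CPM with CMK, against 82.3 and 47.6 CPM with DMSO (0.14 ± 0.51, edgeR adjusted p = 0.908), higher in one pair and lower in the other.

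HXT4 and HXT5 mRNA stood higher with CMK, without passing the test on the S. pombe scale. HXT4 had 35.7 and 68.8 CPM with CMK, against 16.2 and 5.34 CPM with DMSO, a difference of 1.92 ± 0.828 (edgeR adjusted p = 0.2). HXT5 had 37 and 29 reads with CMK, against 6 and 1 with DMSO (2.64 ± 1.42, edgeR adjusted p = 0.32). Relative to other S. cerevisiae genes HXT4 passed (1.96 ± 0.628, 3.89-fold, adjusted p = 0.034) and HXT5 did not (adjusted p = 0.068). Without kin28is DMSO replicate 1 both were called (HXT4 3.79, adjusted p = 0.000248, and HXT5 5.93, adjusted p = 0.00168), also for 1-NAPP-1 minus DMSO (2.72, adjusted p = 0.0228, and 4.64, adjusted p = 0.0412), which sets HXT5 against 1 DMSO read.

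Many other lowly read genes moved with HXT4 and HXT5 across libraries. The 527 genes with the fewest reads among all others held 1.01% and 1.88% of total RNA reads in kin28is CMK at 2 and 5 µM, 0.594% and 0.812% with 1-NAPP-1, and 0.666% and 0.458% with DMSO. In WT cells they held 0.788% and 1.23% with CMK, 0.614% and 1.32% with 1-NAPP-1, and 0.688% and 0.549% with DMSO, and 1.68% in the culture without 4tU. HXT4 took 31.0 and 41.5 CPM with CMK, 12.7 and 45.4 CPM with 1-NAPP-1 and 23.3 and 9.68 CPM with DMSO in WT cells, and 68.1 CPM without 4tU. STE3, which MATa cells do not use, had 37.1 and 42.7 CPM in kin28is CMK, against 9.28 and 2.26 CPM in kin28is DMSO, and 43.9 CPM without 4tU. The other alpha-specific genes, MF(ALPHA)1 and MF(ALPHA)2, reached at most 3.08 and 2.04 CPM in total RNA. The part of these genes' movement in the HXT4 and HXT5 values was not tested.

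**Figure D4:**
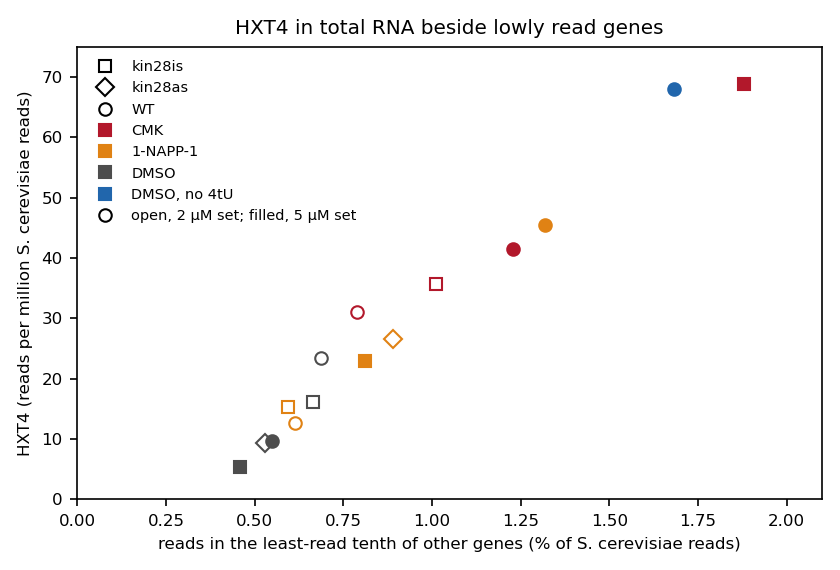
HXT4 in total RNA (CPM) against the share of reads in the 527 least-read other genes, one point per library of kin28is (squares), kin28as (diamonds) and WT (circles). The kin28is CMK library at 5 µM, at 68.8 CPM and 1.88%, lies beside the untreated WT library without 4tU, at 68.1 CPM and 1.68%.

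1-NAPP-1 in kin28is and both inhibitors in WT gave no call for any member in total RNA in edgeR (0.0% of all genes), with 0 members at an unadjusted p under 0.05 and 0 in DESeq2. HXK2 differed by 0.02 between kin28is 1-NAPP-1 and DMSO (2 SE either side, −0.630 to 0.673), by −0.15 between WT CMK and DMSO (−0.800 to 0.503) and by −0.21 between WT 1-NAPP-1 and DMSO (−0.859 to 0.443). HXT3 differed by 0.25, 0.11 and −0.04 in the same comparisons. With DMSO alone, kin28is minus WT was −0.39 ± 0.326 for HXK2 and −0.08 ± 0.339 for HXT3 (edgeR adjusted p = 1 for both).

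The kin28as strain, with 1 library per treatment, has no replicate check and no test. Nascent HXK2 had 3547 spike-scaled reads with 1-NAPP-1 and 30230 with DMSO, 8.52-fold lower, and 557 against 1141 CPM. Total HXK2 had 640 CPM with 1-NAPP-1 and 1261 CPM with DMSO, 1.97-fold lower, or 2.36-fold lower per S. pombe read. Per S. pombe read in nascent RNA, HXT3 was 3.92-fold, HXT1 4.75-fold and HXT2 11.3-fold lower with 1-NAPP-1, and in CPM HXT3 differed by 0.09 and HXT1 by −0.19 on the log2 scale. In WT at the same dose these 4 genes were lower with 1-NAPP-1 as well per S. pombe read, HXK2 by 3.21-fold, HXT3 by 2.88-fold, HXT1 by 3.36-fold and HXT2 by 3.21-fold, while HXK2 was 1152 CPM with 1-NAPP-1 and 1058 CPM with DMSO. Whether the strains differ in this was not tested, with 1 library each. HXT4 had 26.5 CPM with 1-NAPP-1 and 9.24 CPM with DMSO in total RNA, where the 527 least-read genes held 0.890% and 0.529% of reads, and their part in it was not tested.

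In WT cells the share of each gene in nascent RNA was compared with its share in total RNA over 6 pairs of libraries with the same strain, treatment and replicate number. Among transporter genes, HXT3 and HXT1 were higher in nascent than in total RNA and HXT2 and HXT4 lower. HXT3 differed by 0.573 ± 0.151 (log2 nascent minus total ± SE, 1.49-fold, edgeR adjusted p = 0.00621) and HXT1 by 0.517 ± 0.145 (1.43-fold, adjusted p = 0.00871). HXT2 differed by −0.601 ± 0.157 (1.52-fold lower, adjusted p = 0.00581) and HXT4 by −1.43 ± 0.299 (2.7-fold lower, adjusted p = 0.0015). HXK2 was at −0.341 and did not pass (adjusted p = 0.0757; DESeq2 −0.361, adjusted p = 0.0244), and HXT5 did not pass the filter on low counts. Of 5203 genes, 28.8% were higher and 27.0% lower, so 4 of 5 members called stands beside 55.9% of all genes.

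HXT3 was higher in nascent RNA in 6 of 6 pairs, by 0.782 (CMK), 0.631 (1-NAPP-1) and 0.432 (DMSO) at 2 µM and by 0.912, 0.924 and 0.332 at 5 µM. HXT1 was higher in 6 of 6 too, by 0.0213 to 0.995. HXT4 was lower in 6 of 6, by −0.285 to −2.66, and the 2 pairs nearest 0 were those with 1-NAPP-1. In these WT libraries the 527 least-read genes held 0.499% to 1.02% of nascent and 0.549% to 1.32% of total RNA reads. Their part in the HXT4 difference was not tested. HXT2 was lower by −0.831 to −1.41 in the 5 µM pairs and lay between −0.149 and 0.0567 in the 2 µM pairs, so its difference rests on the 5 µM set. These are differences in shares. Scaled to S. pombe, 79.4% of all genes were higher in nascent RNA, and HXT2 (1.21), HXT4 (0.47) and HXK2 (1.53) changed sign.

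**Figure D5:**
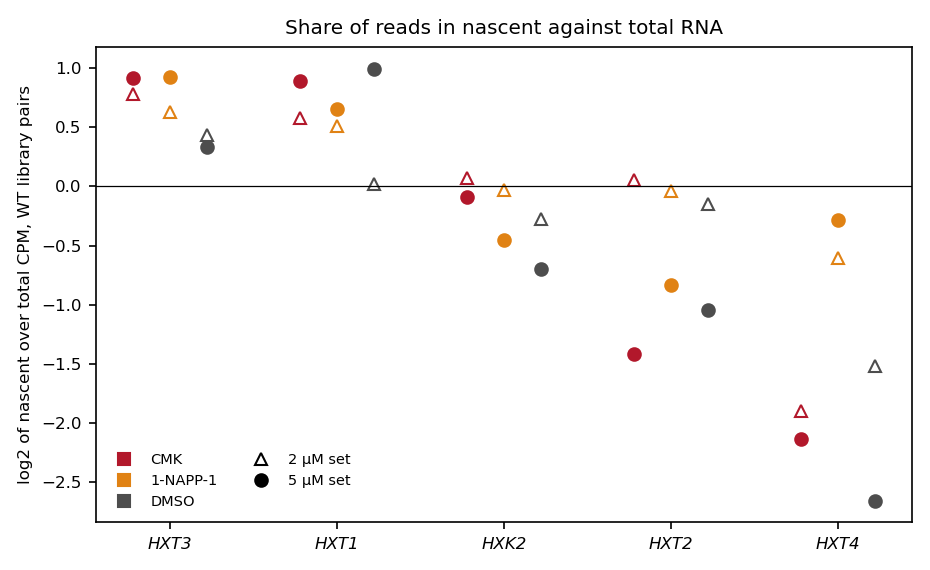
Log2 ratio of nascent over total CPM in 6 WT library pairs (colours, treatment; open triangles, 2 µM set; filled circles, 5 µM set). HXT3 and HXT1 lie above 0 in all 6 pairs and HXT4 below 0 in all 6, while HXT2 separates by set.

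Genes of the pathways around these members were counted from lists of known regulators, glycolytic enzymes and glucose-repressed genes. Of 24 regulators of hexose transport and glucose repression, 21 were tested and 18 were lower in nascent RNA with CMK than with DMSO in kin28is cells (median −1.82, all genes −1.69), beside 71.7% of all genes lower. They included YCK2, a casein kinase of the sensor pathway (−2.60, edgeR adjusted p = 3.41e-05), and the corepressor genes TUP1 (−2.38, adjusted p = 9.46e-05) and CYC8 (−2.14, adjusted p = 0.000399). All 12 glycolytic enzyme genes tested of 13 were lower (median −1.94, beside the same 71.7%), among them the phosphofructokinase genes PFK1 (−2.24, adjusted p = 0.000182) and PFK2 (−2.03, adjusted p = 0.000647). Relative to other S. cerevisiae genes, 1 regulator, YCK2 (−0.93, adjusted p = 0.0491), and 0 glycolytic genes were called, where 4.49% of genes were. Of the other hexose transporter family, HXT8 and GAL2 were in the table and were tested, with a median of −0.403. HXT8 was lower (−2.06, edgeR adjusted p = 0.0302), beside 71.7% of all genes, while GAL2 lay above that median and was not called. EMI2, the glucokinase paralog, had at most 2 reads and was not tested. The glycolytic gene TPI1 and the regulators MIG3 and TOS3 had 0 reads in every library, and the regulator RGT1 had at most 12 in any library. Why these rows were at or near 0 was not given in the sources used here, so such a count need not mean low expression.

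Genes that glucose represses stood apart from this pattern in their values. Of 16 tested, 2 were lower in nascent RNA with CMK than with DMSO, beside 71.7% of all genes. These were the activator genes ADR1 (−2.60, edgeR adjusted p = 2.53e-05) and HAP4 (−1.71, adjusted p = 0.0044). The malate synthase gene MLS1 was the 1 higher gene (2.50, adjusted p = 0.0241), beside 0.249% of all genes. The median was −0.10 where all genes had −1.69. How far these genes stood over the pull-down background was not tested. On the S. cerevisiae scale 5 were higher, where 2.40% of all genes were, with GAL7 (2.87, adjusted p = 0.0127), MLS1 and SIP4 first, and the median was 1.40. In total RNA 0 of 16 passed on the S. pombe scale (median 1.82, all genes 0.176), where 2.04% of all genes were lower and 0.306% higher. There 11 were higher on the S. cerevisiae scale, beside 18.2% of all genes, with the isocitrate lyase gene ICL1 at 2.01 (edgeR adjusted p = 0.00841). The median level of these 16 genes in total RNA was 42.7 and 96.1 CPM in kin28is CMK, against 21.6 and 9.65 CPM in kin28is DMSO, and 74.2 CPM in the WT culture without 4tU. The share of the 527 least-read genes given above moved with it, and was also larger with CMK than with DMSO in nascent kin28is RNA at 5 µM. Its part in either RNA fraction was not tested.

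On the S. pombe scale, fewer regulators and glycolytic genes were called in total than in nascent RNA. CMK minus DMSO in kin28is called 1 of 12 glycolytic genes tested, TDH2 (−1.26, edgeR adjusted p = 0.0474), and 0 of 21 regulators. Among all genes 2.04% were lower and 0.306% higher. Against 1-NAPP-1, 2 of 21 regulators were lower, GLC7 (−1.20, edgeR adjusted p = 0.0177) and YCK2 (−1.11, adjusted p = 0.0347). So were 2 of 12 glycolytic genes, TDH2 (−1.58, adjusted p = 0.00319) and ENO1 (−1.36, adjusted p = 0.00364), where 3.99% of all genes were called. TDH2 and ENO1 share long stretches with near-identical copies, so their counts are uncertain for the single gene. In WT cells, 13 of 21 regulators tested were higher and 2 lower in nascent than in total RNA (median 0.487). Of 12 glycolytic genes tested, 10 were lower and 0 higher (median −1.25). Of 16 glucose-repressed genes tested, 11 were lower and 2 higher (median −1.59). Among all genes 28.8% were higher and 27.0% lower, with a median of 0.0154.

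By the likeness of their CPM over 28 kin28is and WT libraries, centred within RNA fraction and replicate set, HXK2 was most like OYE2 (Pearson r 0.979), YDJ1 (0.973) and PSA1 (0.963) among 5113 genes. HXT3 was most like DLD3 (0.866), CIA2 (0.845) and ERO1 (0.826), HXT1 like ERG7 (0.752), SNF11 (0.734) and UBP5 (0.690), and HXT2 like MET14 (0.847), PRM7 (0.813) and SPL2 (0.811). HXT4 was most like STE3 (0.930), the alpha-specific gene above, HIM1 (0.916) and CAT2 (0.899). Between members the highest r was 0.555, between HXT2 and HXT4, and the lowest −0.536, between HXT4 and HXK2. These are descriptions over libraries that share treatments and depth, and HXT5 fell under the level needed.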

How the data were processed

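The authors deposited whole-number read counts per gene of both yeasts for 34 libraries, in which every column matched a labelled sample. Per the submitters' processing notes, CASAVA 1.8.2, STAR 2.3.0, HTSeq 0.6.0 and sacCer3 were used, in roles not stated there. The 10 genes and all lists were chosen with earlier results of these data known, and gene symbols came from RefSeq for 5241 rows.

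Tests used edgeR 4.0.16 quasi-likelihood fits in R 4.3.3 on the deposited counts (filterByExpr, minimum count 10), with Benjamini-Hochberg adjustment over all S. cerevisiae genes at 0.05. Library sizes were the S. pombe read totals times TMM factors of the S. pombe genes, which puts differences per unit of S. pombe RNA, and "relative" values used S. cerevisiae totals and factors. The nascent fit held the 10 labelled kin28is and WT libraries at 5 µM (4 residual degrees of freedom). The total RNA fit held 12 libraries with the dose set as a term (5 residual degrees of freedom). There the replicate number is the dose set in the labels, and 20 of 30 same-number pairs of libraries deviated together (r over 0.1, lowest −0.159, median 0.222). The WT nascent-total fit held 12 libraries with a pair term. DESeq2 1.42.0 was an alternative. Standard errors are the difference over the root of F, and a range of 2 SE either side is given for some differences. CPM are per 1000000 S. cerevisiae reads. No label states whether replicates are separate cultures, and the p-values then reflect only the spread of these libraries, which may be technical. Floors for a count of 0 cover counting error only.

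Named genes were the members, up to 3 called genes with the smallest p per list and comparison, and the 3 genes with the highest Pearson r of log2(CPM + 1) to each member, for genes with a mean of at least 10 CPM. In simulated counts on the nascent and total designs, 36% and 35% of genes changed by 1 log2 unit (of 100 each) and 100% of those changed by 2 were recovered for kin28is CMK minus DMSO. The simulation gave all genes the same fixed spread and changed only genes above a minimum expected count. It added no scatter of S. cerevisiae against S. pombe reads between libraries. It therefore does not show what would be recovered for lowly read or more variable members.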

Additional observations from a re-analysis of the deposited data

Results flagged for a closer look

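In nascent kin28is CMK, the group with 4 libraries, the library of the 2 µM set (replicate 1) stood far above the 3 libraries at 5 µM per S. pombe read. Its gap to the next library took up 0.993 of the whole range for HXK2, 0.968 for HXT3, 0.967 for HXT2 and 0.885 for HXT1. In CPM it stood apart for HXK2, at 800 against 333 in the next library, with a gap of 0.905 of the range. This library also differs from the others in dose, and it held 13.9 S. cerevisiae reads per S. pombe read, so the 5 µM comparisons do not include it. HXT5 stood apart in replicate 2, with 7 reads where the other 3 libraries had 0, a gap of 1 in CPM and per S. pombe read. For 6 genes on these 2 scales 12 sets were looked at, and chance flags about 1 set in 20.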

How the results depend on the processing

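Each comparison was refitted with other scalings, filters, tools, blocks and sets of libraries, except that the sum of HXT6 and HXT7 was not run because neither was analysed here. Of 1307 member differences, 1254 kept their side of the threshold, 29 lost and 17 gained a call, and 7 reversed. The 1254 include 94 that were called in neither fit and changed sign, so these did not keep their direction. For nascent kin28is CMK minus DMSO 3 members were called, against 1 relative to S. cerevisiae (HXT3 0.345), 0 with all 16 libraries, 0 with all 16 and a replicate block, and 1 to 3 when a library was left out. Of the 5 µM nascent libraries, 4 of 6 same-number pairs deviated together (r over 0.1, lowest 0.0441, median 0.154), and the main nascent fit had no term for this. With a 5 µM replicate block 2 were called, HXK2 (−2.56, adjusted p = 0.00283) and HXT1 (−1.80, adjusted p = 0.0189), and HXT3 was not (−1.26, adjusted p = 0.0636). For CMK minus 1-NAPP-1 3 were called, 0 relative to S. cerevisiae (HXT3 0.69) and 0 with all 16 libraries (HXT3 0.211, HXK2 1.03) or with their replicate block (HXK2 −1.07), and 2 with the 5 µM replicate block. The strain difference in nascent response went from 0 to 3 in DESeq2 and 0 to 1 when a library was left out, and kin28is minus WT with DMSO to 1 in DESeq2. In total RNA, CMK minus DMSO called 1 member, 3 relative to S. cerevisiae, 0 with no replicate block and 0 to 3 when a library was left out. CMK minus 1-NAPP-1 called 1, 2 in DESeq2, 0 with no replicate block and 0 to 1 when a library was left out. 1-NAPP-1 minus DMSO called 0 to 2 when a library was left out. The strain difference called 0, 1 in DESeq2 and 0 to 1 when a library was left out, without WT CMK replicate 1 or kin28is DMSO replicate 2. WT nascent minus total called 4, and 1 (HXT3) with no replicate block on the pair, and S. pombe scaling reversed HXT2 (1.21), HXT4 (0.472) and HXK2 (1.53). Over all genes, nascent CMK minus DMSO called 3745 lower, 2491 with the 5 µM replicate block, 0 with all 16 libraries and 109 relative to S. cerevisiae. Total CMK minus DMSO called 107 lower and 16 higher, 260 and 4 in DESeq2, 36 and 3 without TMM factors, 1063 and 951 relative to S. cerevisiae and 0 with no replicate block. The cause of these changes was not tested. Where a library left out was the only one of its group, that group's comparisons had no fit, and where 1 remained it is assumed to vary like the other groups. Depth limits HXT4 and HXT5 most, with 1 to 130 and 0 to 11 nascent reads per library.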

Other observations

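In the WT DMSO culture without 4tU, at the 5 µM set, the nascent library held 705 CPM of HXK2, 536 of HXT3, 201 of HXT1, 80.6 of HXT2 and 37.8 of HXT4. The total RNA library of that culture held 619 CPM of HXK2, 433 of HXT3, 199 of HXT1, 93.2 of HXT2 and 68.1 of HXT4. HXT2 and HXT4 stood higher in both than in the labelled WT DMSO libraries of the same set, which had 24.6 and 1.53 CPM in nascent and 50.7 and 9.68 CPM in total RNA. HXT5 had 59 reads in the total RNA library without 4tU, against 5 in the labelled WT DMSO library of that set. There was 1 such library per fraction, so these differences have no replicate check.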
